A study of Mus musculus with 8 samples.

Results

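Cytosolic ribosomal protein genes were examined in hearts of adult male and female C57BL/6 mice, in a series that asked how the cardiac transcriptome differs between the sexes. Members were taken from the gene symbols: Rpl or Rps followed by a number and, where present, the ending a, l, x or l1, together with Rplp0, Rplp1, Rplp2 and Rpsa. This rule found 86 of the 49315 genes in the count table, and left out pseudogenes with the ending -ps and the S6 kinases. The members comprise 30 proteins of the small subunit, 43 of the large subunit, 3 of the stalk, and 10 paralogs or copies: Rpl3l, Rpl22l1, Rps27l, Rpl7l1, Rpl39l, Rpl10l, Rps4l, Rpl6l, Rpl32l and Rps12l1. The GENCODE M21 annotation lists Rpl6l, Rpl32l and Rps12l1 as processed pseudogenes and Rps4l as a processed transcript, so these symbols do not stand for annotated proteins.

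RNA-seq libraries were made from total RNA of hearts of male C57BL/6 mice aged 8 weeks (n = 4) and of female C57BL/6 mice aged 8 weeks (n = 4). The labels name no treatment, and no allele beyond the strain. They do not say which part of the heart was taken or whether each library came from its own animal, so p-values measure the spread between these libraries, which may be technical. Total counts were 39612848 to 47097765 in the male libraries and 32746054 to 35467832 in the female libraries, so depth and sex move together in this design. One count was worth 0.0212 to 0.0305 CPM (counts per 1000000 counts; all later CPM use library sizes scaled by the trimmed mean of M values, TMM). Cardiomyocyte markers were abundant in every library: 10 of them, Myh6 first, summed to 98453 to 107395 CPM in male hearts and 104606 to 106121 CPM in female hearts. Of these 10, edgeR and limma-voom called 0 different between the sexes, DESeq2 called 1, and 1 had an unadjusted p under 0.05. The sum does not show how single markers vary. Nppa, also on this list, ranged from 186 to 1312 CPM in male hearts and from 1175 to 1343 CPM in female hearts.

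Each cytosolic ribosome is built from one copy of most of these proteins on a scaffold of ribosomal RNA. The small subunit reads the messenger RNA, the large subunit joins amino acids, and the stalk proteins Rplp0, Rplp1 and Rplp2 recruit the elongation factors. Striated muscle is known for a paralog of the large subunit protein Rpl3, called Rpl3l, that takes the place of Rpl3 in a part of its ribosomes. Muscle likewise replaces the elongation factor Eef1a1 with Eef1a2.

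Rpl3l and Rpl3 lie on different chromosomes and differ in sequence along their whole length. In GRCm38 (mm10), Rpl3l is on the plus strand of chromosome 17 (chr17:24727820-24736143) and Rpl3 on the minus strand of chromosome 15 (chr15:80077794-80091868). Their coding sequences were identical at 74.4% of 1205 aligned bases, and the longest identical run was 22 bases. The 90 aligned bases in which the pair differs most, with 34 mismatches, are shown first because they show how far the paralogs have parted. They are from exons on chr17:24733923-24734012 and chr15:80078713-80078802, read 5′ to 3′ along each messenger RNA, with the bases that differ between the genes in capitals.
Rpl3l: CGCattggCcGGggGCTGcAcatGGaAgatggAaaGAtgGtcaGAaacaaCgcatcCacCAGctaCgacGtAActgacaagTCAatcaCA
Rpl3: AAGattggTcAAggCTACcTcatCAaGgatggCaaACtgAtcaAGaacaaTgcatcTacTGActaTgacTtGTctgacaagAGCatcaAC
The 90 aligned coding bases in which the pair is most alike still hold 16 mismatches. They span an intron in both genes, on chr17:24733492-24733669 and chr15:80079765-80080369, and the capitals again mark the differing bases. All sequences are from the longest protein-coding transcripts of GENCODE M21 or, for Rps4l, the annotated transcript.
Rpl3l: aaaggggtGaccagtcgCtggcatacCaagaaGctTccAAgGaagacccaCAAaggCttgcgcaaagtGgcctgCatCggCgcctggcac
Rpl3: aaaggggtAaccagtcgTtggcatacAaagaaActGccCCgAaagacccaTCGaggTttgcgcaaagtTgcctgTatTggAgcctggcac

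The core ribosomal protein transcripts did not differ detectably between male and female hearts. Outside the 10 paralogs and copies, 76 of 76 members were tested, and edgeR's quasi-likelihood test with Benjamini-Hochberg adjustment over 16180 genes called 0 of them. None of the 76 had an unadjusted p under 0.05, and DESeq2 and limma-voom also called 0. Over all 83 members tested it called 1, Rpl3l, higher in male hearts, against 3.79% of all genes tested (2.03% higher and 1.76% lower in male hearts). DESeq2 called 2 members, Rpl3l and Rps4l, against 5.96% of all genes, and limma-voom called 1, Rpl3l, against 3.8%. An unadjusted p under 0.05 was reached by 3 members, or 3.61%, against 19.5% of all genes. The fold changes of the 76 core members, male minus female, lay between -0.10 and 0.04 on the log2 scale, and their adjusted p-values were 0.32 or higher. In bulk tissue, fewer cells of a type and less RNA per cell cannot be told apart.

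The intervals of these transcripts bound, gene by gene, how large a difference could have been. The 95% intervals of the core members all lay between -0.22 and 0.15 (log2), and 73 of the 76 stayed within 0.2 of zero. Over all members tested, 90.4% had an interval within 0.2 of zero, against 34% of all genes tested, and the median standard error was 0.05 for members and 0.08 for all genes. The members' median fold change was -0.02, with 22 above and 61 below zero, beside a median of -0.00074 over all genes, of which 49.7% were above zero. Single libraries decide this lean: without male replicate 4 the members' median was 0.02, with 60 above and 23 below zero, without female replicate 1 it was 0.0045, with 48 above and 35 below, and without female replicate 4 it was -0.0044, with 36 above and 47 below.

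**Figure D1:**
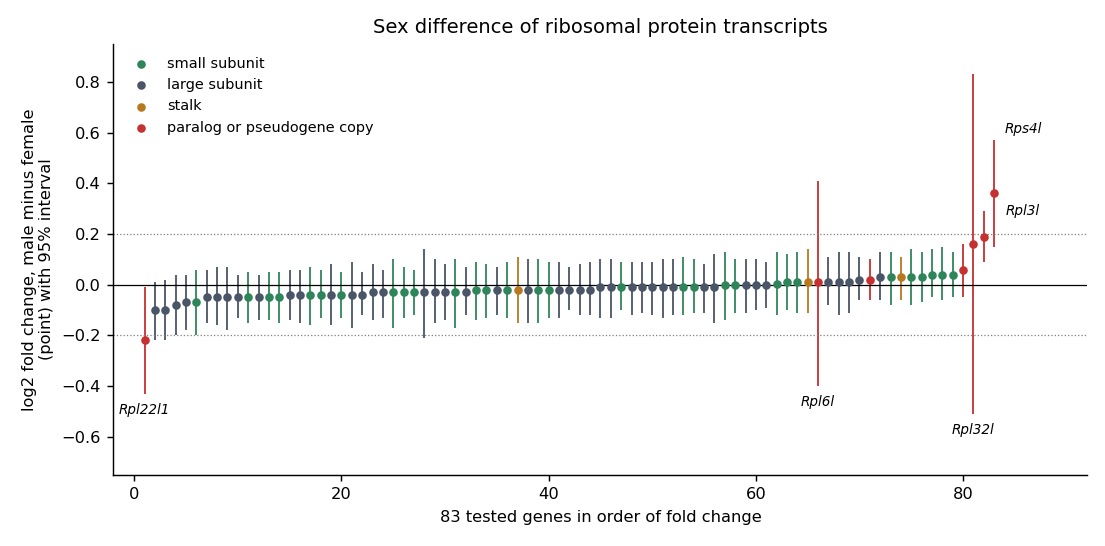
Log2 fold change of each of the 83 tested members, male minus female, in order of size (points) with 95% intervals (bars) from the edgeR fit, coloured by class. Core members lie between -0.10 and 0.04, Rpl22l1 stands at -0.22, and Rpl3l and Rps4l stand highest at 0.19 and 0.36.

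Small subunit members had narrow intervals. All 30 had an interval within 0.2 of zero, with a median fold change of -0.02 and a range of -0.07 to 0.04. Rps9, a protein of the small subunit's body, had one of the largest positive values of the core members, at 0.04 ± 0.04 (SE). Rpsa, the small subunit protein that also gave its name to a laminin receptor, averaged 412 ± 25.2 CPM in male hearts and 432 ± 32.6 CPM in female hearts (SD, n = 4 each), a fold change of -0.07 ± 0.06 (SE) with an edgeR adjusted p of 0.57.

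Among the 43 large subunit members, 38 had a fold change below zero and 5 above. Without male replicate 4 the count was 14 below and 29 above, without female replicate 1 it was 23 below and 20 above, and without female replicate 4 it was 29 below and 14 above. The most negative was Rpl36a, at 94.4 ± 6.34 CPM in male hearts and 101 ± 4.88 CPM in female hearts (SD, n = 4 each), a fold change of -0.10 ± 0.05 (SE) with an edgeR adjusted p of 0.32. Rpl38, a small surface protein known in mice for its part in translating Hox messenger RNAs, also stood at -0.10, with an adjusted p of 0.35. Rpl12, which sits at the base of the stalk, stood at -0.08, and Rpl5, which binds 5S ribosomal RNA, at -0.07, each with an edgeR adjusted p of 0.48. For each of these 4 genes the CPM ranges of the sexes overlapped.

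The stalk genes differed between the sexes by less than the spread between libraries. Rplp0, the stalk's anchor, had 731, 720, 737 and 700 CPM in male hearts, against 726, 669, 705 and 734 CPM in female hearts. Rplp1 had 512, 506, 505 and 448 CPM in male hearts, against 538, 454, 493 and 512 CPM in female hearts. Rplp2 had 274, 282, 277 and 254 CPM in male hearts, against 290, 241, 266 and 279 CPM in female hearts. For each gene the ranges overlapped, and the fold changes were 0.03 for Rplp0, -0.02 for Rplp1 and 0.01 for Rplp2 (edgeR adjusted p from 0.76 to 0.93). Their 95% intervals together reached from -0.15 to 0.14.

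Of the members, 4 core genes are on the X chromosome: Rps4x of the small subunit, and Rpl10, Rpl36a and Rpl39 of the large subunit. Rps4x had 325, 308, 309 and 293 CPM in male hearts, against 320, 321, 301 and 334 CPM in female hearts. Rpl10 had 256, 237, 242 and 220 CPM in male hearts, against 244, 241, 243 and 259 CPM in female hearts. The ranges overlapped for all 4 genes. Their fold changes lay between -0.10 and -0.05, with adjusted p-values of 0.32 to 0.64, and the 4 intervals together reached from -0.22 to 0.07.

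Levels of the members spanned several orders of magnitude when CPM was divided by the summed exon length of the gene. The highest was Rplp1, at 994 CPM per kb over the 8 libraries, followed by Rpl36 at 664, Rps15 at 570, Rps12 at 488, Rpl8 at 451 and Rplp0 at 431 CPM per kb. Neighbours in this order often did not differ beyond their spread: Rpl8 had 446 ± 26.5 and Rplp0 435 ± 9.87 CPM per kb in male hearts, and Rpl8 had 456 ± 21.2 and Rplp0 427 ± 17.3 CPM per kb in female hearts (SD, n = 4 each). The lowest core members were Rps19 at 32.6 and Rps15a at 27.4 CPM per kb. Summed exon length counts all annotated isoforms, 3119 bases for Rpl3 and 6270 for Rps15a, so genes with long minor isoforms are placed too low on this scale.

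Rpl3l ranked 21 of 86, at 201 CPM per kb, and so lay among the core members, while Rpl3 ranked 71 at 50.7 CPM per kb. In male hearts Rpl3l, at 214 ± 9.06 CPM per kb, stood beside Rpl32 at 210 ± 12.5 and above Rps4x at 189 ± 8.19 CPM per kb. In female hearts Rpl3l, at 187 ± 8.56 CPM per kb, stood below Rpl32 at 212 ± 11 and within the spread of Rps4x at 196 ± 8.49 CPM per kb. Of the other paralogs and copies, Rps27l, at rank 72 with 49.8 CPM per kb, also lay among the core members, next to Rpl3. The rest were below every core member. Rps4l had 23.8, Rpl7l1 18.4 and Rpl22l1 6.86 CPM per kb, and the annotated pseudogenes Rpl6l and Rpl32l had 1.3 and 0.959 CPM per kb.

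**Figure D2:**
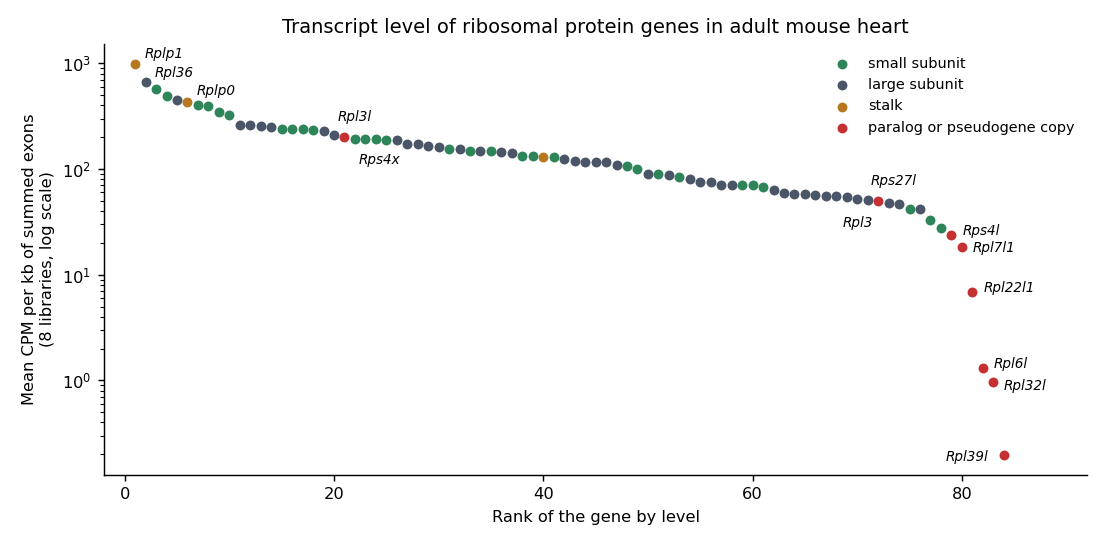
Mean level of 84 members over the 8 libraries, in CPM per kb of summed exon length (log scale), by rank and coloured by class. Rplp1 leads at 994 CPM per kb, Rpl3l lies at rank 21 and Rpl3 at rank 71, and most other paralogs and copies are at the low end. Rpl10l and Rps12l1, with 3 and 0 counts, are not drawn.

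Rpl3l was the 1 member whose transcript differed between the sexes by the test, and the difference was small. Its level was 330, 353, 357 and 365 CPM in male hearts, against 302, 291, 314 and 323 CPM in female hearts. All 4 male libraries were above all 4 female ones. Means were 351 ± 14.9 CPM in male hearts and 308 ± 14.1 CPM in female hearts (SD, n = 4 each), a fold change of 0.19 ± 0.04 on the log2 scale (SE), or 1.14-fold, with an edgeR adjusted p of 0.039. Rpl3l was also the 1 tested member of 83 whose CPM ranges did not overlap, against 12% of all genes tested.

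Its call stood close to the threshold. Over 17 alternative fits the fold change of Rpl3l lay between 0.16 and 0.22, and 10 of the fits called it, with adjusted p-values from 0.0016 (DESeq2) to 0.11 (without male replicate 3). The call was lost with male replicate 2, 3 or 4 or female replicate 1, 2 or 3 left out, where the adjusted p was 0.08, 0.11 and 0.081 for the male libraries and 0.092, 0.1 and 0.071 for the female ones.

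Other features of these libraries moved with the same groups. Counts of mitochondrially encoded genes came to 124900 ± 1461 CPM in male hearts and 105434 ± 6232 CPM in female hearts (SD, n = 4 each), without overlap. With these genes removed and the libraries scaled by TMM again, Rpl3l kept a fold change of 0.19 and an edgeR adjusted p of 0.039. That refit only takes their counts out of the scaling, so a link between mitochondrial level and Rpl3l was not tested. With all libraries thinned to 32746054 counts Rpl3l had a fold change of 0.19 and an edgeR adjusted p of 0.045. Markers of skeletal muscle, which also uses Rpl3l, summed to 3546 to 3906 CPM in male hearts and 2899 to 3380 CPM in female hearts. Of that sum 86.3% was Ckm, which cardiomyocytes make too. Of 10 skeletal muscle markers 7 passed the filter and 1, Acta1, was called, at 0.69 with an adjusted p of 0.028, while the fast myosin genes Myh1, Myh2 and Myh4 reached at most 0.0243, 0.0485 and 0.218 CPM in male hearts and 0.121, 0.0906 and 0.209 CPM in female hearts. The fast light chain gene Myl1 had 38.1 to 72.8 CPM in male hearts and 40.8 to 62.2 CPM in female hearts. Fibroblast markers summed to 2893 to 3291 CPM in male hearts and 3422 to 3630 CPM in female hearts, and Col3a1 and Lum were called lower in male hearts, 2 of 10. Pericyte and smooth muscle markers summed to 3621 to 3746 CPM in male hearts and 3347 to 3596 CPM in female hearts, without overlap. Of that sum 67.1% was Des, at 0.14 and not called (edgeR adjusted p = 0.074). Rgs5 was called higher (0.18) and Acta2 lower (-0.39) in male hearts, 2 of 10. Of the uncalled markers, Des and Abcc9 were above zero, and Pdgfrb, Kcnj8, Myh11, Tagln, Cnn1 and Notch3 were below zero. Endothelial and macrophage sums overlapped between the sexes, and 1 marker of 10 in each was called higher in male hearts, Tie1 at 0.20 (adjusted p = 0.045) and Cd163 at 0.35 (adjusted p = 0.044). White adipocyte markers summed to 537 to 624 CPM in male hearts and 605 to 771 CPM in female hearts. Of that sum 70.3% was Pnpla2, at 0.10 and not called (edgeR adjusted p = 0.25). Called lower in male hearts were 8 of 10, with fold changes from -3.29 (Adrb3) to -1.84 (Cfd). Lipe, at -0.18, was not called. The part of these cell types in the Rpl3l result was not tested.

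Rpl3, the partner that other tissues use, varied most in 1 library. It had 176, 159, 163 and 128 CPM in male hearts, against 166, 154, 155 and 165 CPM in female hearts. The sexes overlapped, and the lowest value was male replicate 4, the library that had the highest Rpl3l. The fold change was -0.03 ± 0.08 (SE), with an edgeR adjusted p of 0.87. Rpl3 and Rpl3l together gave 506, 512, 519 and 493 CPM in male hearts, against 468, 445, 469 and 489 CPM in female hearts, without overlap.

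**Figure D3:**
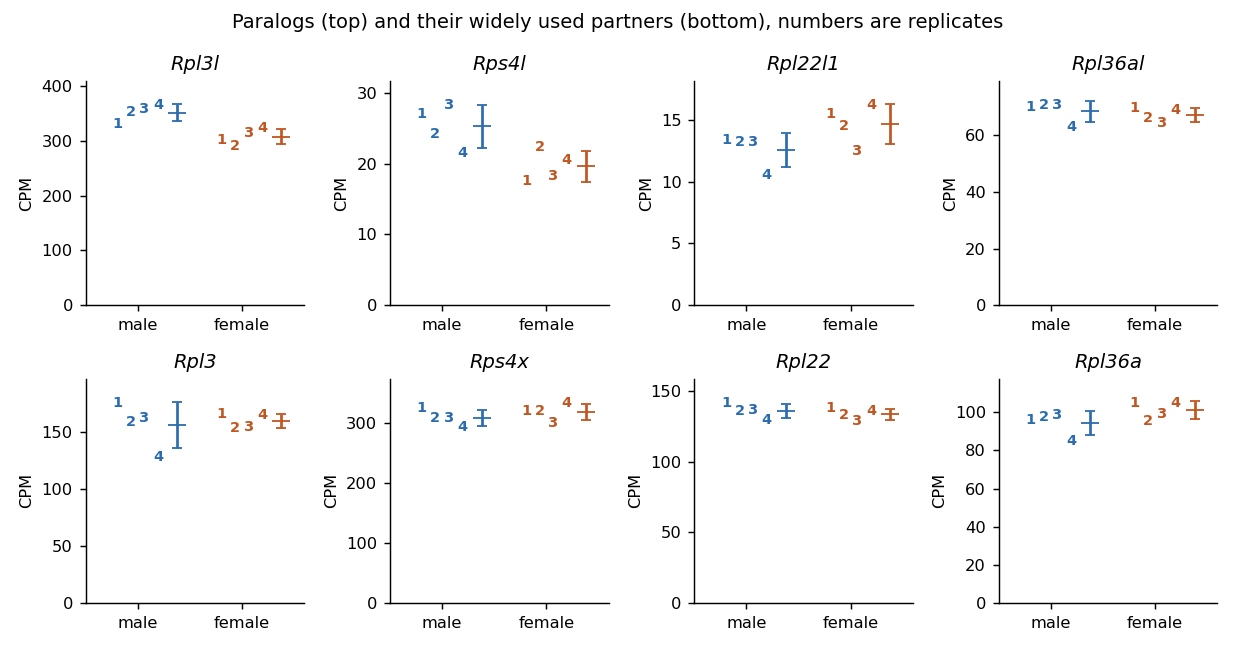
CPM of Rpl3l, Rps4l, Rpl22l1 and Rpl36al (top) and of their partners Rpl3, Rps4x, Rpl22 and Rpl36a (bottom) in each library (digits, which are replicate numbers), male left of female, with the mean and SD of each sex (bars). Rpl3l shows all 4 male values, 330 to 365 CPM, above the 4 female values, 291 to 323 CPM, while the ranges of the other 7 genes drawn overlap.

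Rpl3l made up most of the pair in every heart. Per summed exon length, its share of Rpl3l plus Rpl3 was 78.1%, 80.9%, 80.6% and 84.5% in male hearts, against 77.5%, 78.3%, 79.4% and 78.8% in female hearts. The ranges overlapped, and male replicate 4 stood highest. Mean shares were 81% ± 2.63 in male hearts and 78.5% ± 0.813 in female hearts (SD, n = 4 each). The exact two-sided permutation test on the log2 ratio of counts gave p = 0.11 and 0.2 after adjustment over 7 pairs, where 0.029 is the smallest p that 4 against 4 allows. With 7 pairs, an adjusted p below 0.05 would need at least 5 pairs at that smallest value, so no single pair could pass by itself. The difference in share was 2.5 percentage points, and 1.35 without male replicate 4.

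The size of this share depends on length and on how reads were counted. Without division by length it was 69.2% ± 3.67 in male hearts and 65.8% ± 1.08 in female hearts, and per length of the longest coding transcript it was 68.9% ± 3.7 in male hearts and 65.4% ± 1.09 in female hearts (SD, n = 4 each). Counting error was small beside the spread between libraries: in male replicate 4, with 16726 Rpl3l and 5844 Rpl3 counts, the count share was 74.1% with an exact (Clopper-Pearson) 95% interval of 73.5% to 74.7%. Such intervals cover counting error only. Of the 50-base words in the Rpl3 transcript, 85.6% also occur in transcripts of other genes, 26 in number, whereas 0% of those of Rpl3l do. How reads that match several places were counted is not stated in the sources used here, so the level of Rpl3 against Rpl3l may be set too low in both sexes.

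The elongation factor pair of muscle was set beside it. Eef1a2 had 1635, 1637, 1742 and 1704 CPM in male hearts, against 1578, 1489, 1565 and 1582 CPM in female hearts, without overlap. The fold change was 0.11 ± 0.04 (SE) and was not called (edgeR adjusted p = 0.13). Its share of Eef1a2 plus Eef1a1 per exon length was 67.3%, 70.6%, 71.3% and 73.3% in male hearts, against 69.6%, 68.1%, 68.8% and 69.2% in female hearts (exact permutation test, p = 0.26, adjusted p = 0.33). As for the Rpl3l share, male replicate 4 was the highest and male replicate 1 the lowest male library. Both male 4 values come with the lowest partner levels of any library, 128 CPM for Rpl3 and 741 CPM for Eef1a1. Macrophage markers summed to 844, 505, 477 and 471 CPM in male replicates 1 to 4, and to 444, 391, 438 and 502 CPM in female replicates 1 to 4. Fibroblast markers summed to 3291, 3250, 3249 and 2893 CPM in male replicates 1 to 4, and to 3422 to 3630 CPM in female hearts. The part of these cell types in the order of the shares was not tested. Of the 50-base words of Eef1a1 59.2% occur in other genes, against 0% of those of Eef1a2, so the Eef1a2 share may be set too high.

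**Figure D4:**
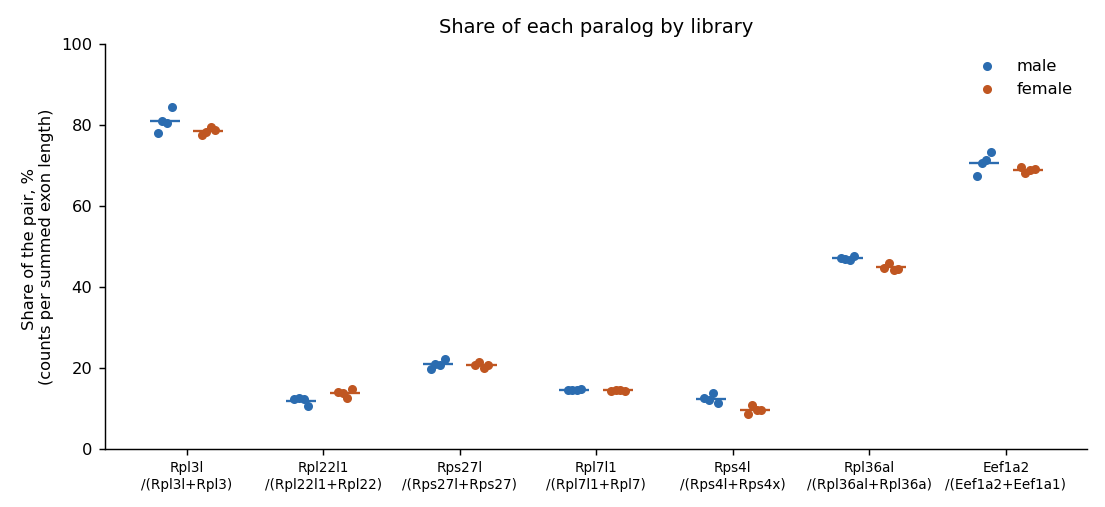
Share of each paralog in the sum of the paralog and its partner, in percent per summed exon length, for each library (points), male left of female, with the mean of each sex (lines). Rpl3l makes up 77.5% to 84.5% of its pair, and the Rps4l and Rpl36al ranges do not overlap between the sexes.

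Rps4l, a copy of the X-linked Rps4x, had the largest fold change of the tested members. It lies on the plus strand of chromosome 6 (chr6:148354656-148355598), and its 943 exon bases fill the whole span, so it has no intron. Its transcript was identical to the Rps4x coding sequence at 80% of 789 aligned bases, with a longest identical run of 35 bases. The 90 aligned bases with most mismatches, 27, are shown because reads can separate the copy from its parent at these bases, with those that differ in capitals. They are from chr6:148355193-148355282 on the plus strand and, across an intron, chrX:102185620-102186444 on the minus strand.
Rps4l: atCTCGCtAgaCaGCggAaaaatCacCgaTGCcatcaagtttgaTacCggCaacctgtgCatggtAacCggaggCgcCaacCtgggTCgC
Rps4x: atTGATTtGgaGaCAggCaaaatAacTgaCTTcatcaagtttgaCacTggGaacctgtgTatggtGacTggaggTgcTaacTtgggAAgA
The 90 bases in which this pair is most alike hold 8 mismatches, and are from chr6:148355403-148355492 on the plus strand and chrX:102185039-102185128 on the minus strand.
Rps4l: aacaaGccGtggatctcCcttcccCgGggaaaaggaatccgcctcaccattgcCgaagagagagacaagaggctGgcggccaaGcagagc
Rps4x: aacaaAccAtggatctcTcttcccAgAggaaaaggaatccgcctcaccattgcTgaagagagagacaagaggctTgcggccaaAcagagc

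Rps4l had 27.1, 24.2, 28.3 and 21.5 CPM in male hearts, against 17.5, 22.3, 18.2 and 20.6 CPM in female hearts. The ranges overlapped through male replicate 4 and female replicate 2. Means were 25.3 ± 3.07 CPM in male hearts and 19.7 ± 2.2 CPM in female hearts (SD, n = 4 each). The fold change was 0.36 ± 0.10 (SE), with an edgeR adjusted p of 0.063, so it was not called. Of 17 alternative fits 4 called it, with adjusted p-values from 0.0047 without a filter to 0.16 without male replicate 3.

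Set against its parent, Rps4l had shares that did not overlap between the sexes. Per exon length its share of Rps4l plus Rps4x was 12.6%, 12%, 13.7% and 11.2% in male hearts, against 8.65%, 10.7%, 9.5% and 9.64% in female hearts. The exact permutation test gave p = 0.029, the smallest that 4 against 4 allows, and 0.1 after adjustment over 7 pairs. Since 5 pairs at that smallest p would be needed, this design could not bring the adjusted value below 0.05 here. Of the 50-base words of Rps4l 14.9% occur elsewhere, in 1 other gene, the pseudogene Rps4l-ps. Of those of Rps4x 72.2% do, in 11 other genes, so the Rps4l share may be set too high in both sexes.

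Rpl22l1, the paralog of the large subunit protein Rpl22, was the lowest paralog with an annotated protein that passed the filter. It had 13.4, 13.2, 13.2 and 10.5 CPM in male hearts, against 15.5, 14.5, 12.5 and 16.2 CPM in female hearts. The ranges overlapped, with male replicate 4 the lowest of all. The fold change was -0.22 ± 0.10 (SE), with an unadjusted p of 0.039 and an adjusted p of 0.23 in edgeR. Rpl22 itself averaged 136 ± 4.74 CPM in male hearts and 134 ± 4.02 CPM in female hearts (SD, n = 4 each), a fold change of 0.02.

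The Rpl22l1 share of its pair per exon length was 12.2%, 12.5%, 12.4% and 10.5% in male hearts, against 14.1%, 13.8%, 12.5% and 14.8% in female hearts. The ranges met at 12.5% and did not separate. The exact permutation test gave p = 0.057, and 0.13 adjusted over 7 pairs. Of the 50-base words of Rpl22l1 57.3% occur in 3 other genes, against 5.19% of those of Rpl22, in 4 genes, so the level of the paralog is the less certain of the pair.

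The other pairs differed by at most a few percentage points. Rpl36al, an autosomal paralog of the X-linked Rpl36a that the symbol rule leaves out, had 46.7% to 47.5% of its pair in male hearts, against 44.2% to 45.9% in female hearts. These ranges did not overlap (exact permutation test, p = 0.029, adjusted p = 0.1), though neither gene was called, at 0.03 for Rpl36al and -0.10 for Rpl36a. Rps27l, a paralog of Rps27 that p53 is known to induce, had 21% ± 0.996 of its pair in male hearts and 20.7% ± 0.607 in female hearts (SD, n = 4 each; exact permutation test, p = 0.66). Rpl7l1, a relative of Rpl7, had 14.6% ± 0.123 in male hearts and 14.4% ± 0.251 in female hearts (SD, n = 4 each; exact permutation test, p = 0.29, adjusted p = 0.33). For Rpl36a, Rps27 and Rpl7, 85.5%, 63.1% and 53.3% of the 50-base words occur in other genes. For Rpl36al, Rps27l and Rpl7l1 the values are 24.9%, 13.7% and 9.03%, so these shares may be set too high in both sexes.

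A few members were close to silent. Rpl39l, a paralog of Rpl39 known from the testis, had 36 counts over the 4 male libraries and 16 over the 4 female ones. Rpl10l, another testis paralog, had 3 counts in male hearts and 0 in female hearts, at or under the floor of 3 counts. Rps12l1 had 0 counts in every library, and all of its 50-base words (100%) occur in other genes, so reads from it could not have been told from those of its parents. These 3 genes did not pass the filter on low counts, and the other 83 members did.

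The sum over all 86 members differed between the sexes by less than the spread between libraries. It was 18963, 18706, 18930 and 17095 CPM in male hearts, against 19325, 17661, 18079 and 19262 CPM in female hearts. Means were 18423 ± 893 CPM in male hearts and 18581 ± 840 CPM in female hearts (SD, n = 4 each). The log2 ratio was -0.01, and 0.02 without male replicate 4. As a share of all counts, with no scaling, the members took 1.81% ± 0.0966 in male hearts and 1.89% ± 0.067 in female hearts (SD, n = 4 each). The small subunit genes summed to 7444 ± 376 CPM in male hearts and 7515 ± 348 CPM in female hearts, and the large subunit genes to 9012 ± 466 CPM in male hearts and 9158 ± 404 CPM in female hearts (SD, n = 4 each).

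The members shifted together in some libraries. Male replicate 4 was the lowest library for 65 of the 83 tested members, or 78.3%, against 14.4% of all genes tested. Its median deviation from a gene's mean was -0.12 on the log2 scale, with Rpl22l1 at -0.37, Rpl3 at -0.30 and Rps28, a protein of the small subunit, at -0.21 the farthest. Female replicates 1 and 4 were the highest libraries for 35 and 28 members, each with a median deviation of 0.07. Rpl3l was the 1 member that was highest in male replicate 4, at 0.15. In that library the fibroblast marker sum was also the lowest of all 8, at 2893 CPM. The cardiomyocyte sum, 106640 CPM, lay within the range of the others, but 38.3% of that sum over the libraries was Myh6. The part of these cell types in the shift was not tested.

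**Figure D5:**
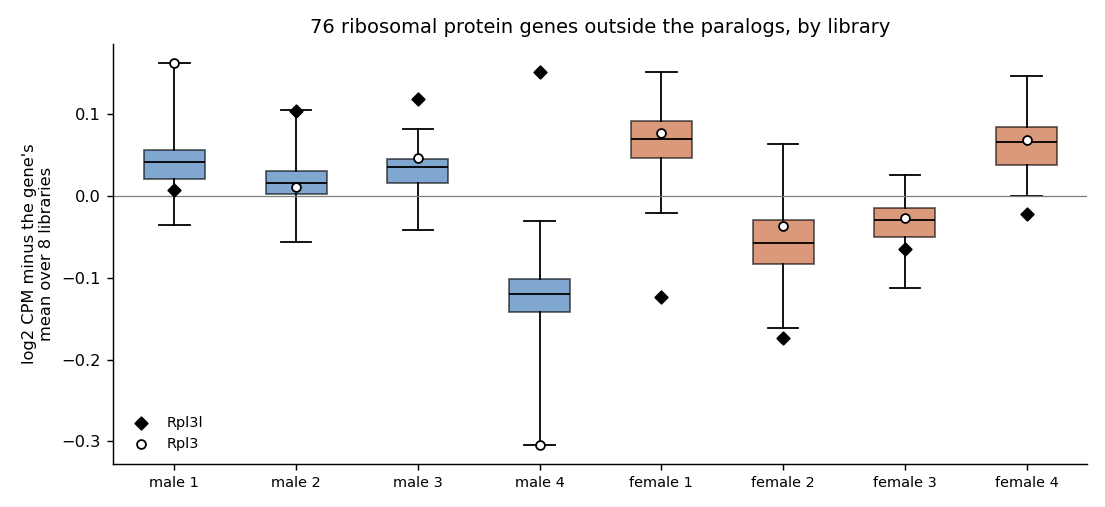
Log2 deviation of the 76 core members from each gene's mean over the 8 libraries, by library, male left of female. Boxes span the quartiles with the median as a line, whiskers reach the lowest and highest gene, and Rpl3l (diamonds) and Rpl3 (circles) are marked. In male replicate 4 the core members lie between -0.30 (Rpl3) and -0.03 (Rplp0), while Rpl3l lies at 0.15.

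Ribosomal protein genes have many processed pseudogenes, and these limit what a count can be assigned to. Over the 76 core members, the median share of 50-base words also found in transcripts of other genes was 42.8%, and 27 members exceeded 50%, with Rps18 highest at 86.7%. Across the 76 genes the level per transcript kb and the share of words found elsewhere had a Spearman rho of 0.35, given as a description over genes that share libraries. The median level was 284 CPM per kb of transcript in the 27 genes over 50% and 205 CPM per kb in the other 49.

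Exons also overlap other genes, and whether counting used strand is not given in the sources used here. Wdr38 covers 66.2% of the exon bases of Rpl35, and Tlcd1 59.7% of those of Rpl23a, each on the opposite strand, so the source of reads there is uncertain. On the same strand, where strand cannot separate reads, Gm28037 covers 47% of the exon bases of Rpl24 and Gm45713 29.4% of those of Rpl13a. Both of these overlapping genes had 0 counts. Rpl3l and Rps4l share no exon base with another gene.

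Counts on the pseudogene rows with -ps symbols were few. Copies under other symbols were not summed. How reads that match several places were counted is not given, so few counts do not show that few reads came from pseudogenes. The table holds 280 rows with -ps symbols, of which 62 had no count and 28 were tested. Together they had 37.1 ± 1.58 CPM in male hearts and 33.5 ± 2.16 CPM in female hearts (SD, n = 4 each), with Rpl38-ps2 the largest at 1353 counts. Of the 28, 1 was called, beside 3.79% of all genes: Rps19-ps6, named here after its values were seen. It had 1.09, 1.29, 1.15 and 1.72 CPM in male hearts, against 0.393, 0.357, 0.386 and 0.567 CPM in female hearts, with no overlap. The fold change was 1.63 ± 0.22 (SE), with an edgeR adjusted p of 0.0029, and all 17 alternative fits called it. It lies within the span of Tecpr2, on the same strand of chromosome 12 (chr12:110898114-110898551). Tecpr2 itself stood at -0.08 with an edgeR adjusted p of 0.61. Overlap of Rps19-ps6 with exons of Tecpr2 was not examined. Rps19, the gene it is named after, stood at -0.01 with an adjusted p of 0.93.

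Genes that work with the ribosome were followed from lists. Of 12 genes of translation elongation, 39 of translation initiation and 46 of ribosome biogenesis, edgeR and limma-voom called 0 in each list. The elongation list also holds the release factors Etf1 and Gspt1 and the inhibiting kinase Eef2k. The initiation list also holds the inhibitors Eif4ebp1 and Eif4ebp2. DESeq2 called 1 elongation gene, 4 initiation genes and 0 biogenesis genes, and 3, 6 and 2 genes of these lists had an unadjusted edgeR p under 0.05. Over all genes, DESeq2 called 5.96%, and 19.5% had an unadjusted p under 0.05. The smallest edgeR p in the elongation list was that of Eef1a2, at 0.011. Eif3h, a subunit of the initiation factor that binds the small subunit, had 182 ± 6.36 CPM in male hearts and 165 ± 4.48 CPM in female hearts (SD, n = 4 each), with an edgeR adjusted p of 0.059. Nolc1, a nucleolar protein of ribosome assembly, had 31.2 ± 1.23 CPM in male hearts and 34.3 ± 0.629 CPM in female hearts (SD, n = 4 each), with an edgeR adjusted p of 0.088. Fold changes were above zero for 33 of the 39 initiation genes (median 0.03), 9 of the 12 elongation genes (median 0.04) and 22 of the 46 biogenesis genes (median -0.01). Over all genes 49.7% were above zero. How these counts change with 1 library left out is not reported here.

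The list of mTORC1 and S6 kinase signalling, which drives translation of ribosomal protein messenger RNAs, had 1 called gene of 22 in edgeR and limma-voom, beside 3.79% and 3.8% of all genes, and 3 in DESeq2, beside 5.96%. An unadjusted edgeR p under 0.05 was reached by 6 of the 22, beside 19.5% of all genes. Sesn1, a stress-induced sestrin that restrains mTORC1, had 153, 134, 155 and 169 CPM in male hearts, against 118, 110, 117 and 120 CPM in female hearts. All male libraries were above all female ones. The fold change was 0.40 ± 0.06 (SE), or 1.32-fold, with an edgeR adjusted p of 0.0063, and all 17 alternative fits called it. The list mixes genes that promote this signalling, such as Mtor and Rheb, with genes that restrain it, such as Tsc1, Tsc2, Deptor and Sesn1. Its median and its count of signs therefore give no direction for the pathway. The median of the list was 0.06, with 19 of 22 fold changes above zero, beside 49.7% of all genes. How this count changes with 1 library left out is not reported here.

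Other messenger RNAs with a terminal oligopyrimidine tract, the 5′ element that ribosomal protein transcripts carry, gave 0 called of 12 in edgeR, DESeq2 and limma-voom, and 0 with an unadjusted p under 0.05, with fold changes of -0.10 to 0.04 and a median of 0.02. Of these, Eef1a1, Eef2, Eif4b, Pabpc1 and Npm1 also stand in the lists above. Vim, an intermediate filament gene, had the smallest p, at -0.10 with an edgeR adjusted p of 0.34. The list of 6 ribosomal proteins that the symbol rule leaves out, among them Fau, Rack1, Rps3a1, Rpl36al and Rps27rt, gave 0 called in edgeR, DESeq2 and limma-voom, with a median of 0.03 and 1 unadjusted p under 0.05. That 1 was Rps27rt, an intronless relative of Rps27, at 0.52 with an edgeR adjusted p of 0.26.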

How the data were processed

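The authors deposited raw counts of reads per gene for 49315 genes in 4 male and 4 female heart libraries, and single-sample tables with the same counts, exon coordinates and summed exon length, per the file headers. The submitters' processing notes list Trimmomatic 0.36, STAR 2.5.2b, featureCounts, Subread 1.5.2 and the build GRCm38 (mm10). How multi-mapping reads were counted, the annotation version and the strand setting are not given in the sources used here. A deposited normalized table was not used. Of the identifiers, 48970 matched a symbol.

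Low genes were removed by filterByExpr with a minimum count of 10 and a minimum total of 15, leaving 16180. These were scaled by TMM and fitted in edgeR 4.0.16 (R 4.3.3) with its quasi-likelihood test, male minus female. Adjustment (Benjamini-Hochberg) ran over all 16180 genes, and an adjusted p below 0.05 was a call. Paralog pairs with at least 10 counts of each gene in every library were compared with exact two-sided permutation tests of the log2 ratio (scipy 1.17.1), adjusted over 7 pairs. Shares were computed per summed exon length, and per longest protein-coding transcript as an alternative chosen after the data were seen. Shared sequence was measured as the share of all 50-base words of a member's longest GENCODE M21 transcript found in transcripts of other genes. Coding sequences were aligned with Biopython 1.88.

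Named genes were the members called, the paralog pairs, the 6 highest per kb, the X-linked and stalk genes and Rpsa, the 5 largest fold changes in each direction (mean log2 CPM 1 or more), and the 5 smallest p-values. Each related list adds its called genes or its smallest p. The members and lists were chosen with earlier results of these data known. Genes named for level, exon overlap or library position fall outside this rule, and single values of some genes are not reported here. The labels do not say that replicate numbers pair the sexes. Deviations of same-numbered libraries correlated at -0.047 to 0.054, against -0.082 to 0.0933 for libraries of other numbers. These correlations run over all genes, and a batch shared by some genes was not tested. The alternatives comprised other scalings and filters, DESeq2 1.42.0, limma-voom (limma 3.58.1), a replicate block, thinning, removal of mitochondrial genes and each library left out. The fitting procedure was tested on simulated data.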

Additional observations from a re-analysis of the deposited data

Results flagged for a closer look

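Among 66 groups of 4 values examined, 8 had 1 library far from the other 3, a gap that chance gives in about 1 of 20 groups. Of these 8, 7 were male replicate 4 at the low end, and they are not independent, since the members moved together in that library. Its summed member level was 17095 CPM, against 18706 to 18963 CPM in the other male libraries. Rplp1 had 448 CPM there, against 505 to 512 in the other male libraries. Rps15 had 330 CPM, against 369 to 373. Rpl7 had 277 CPM, against 295 to 298, and Rpl7l1 46.1 CPM, against 48.6 to 49.1. Rpl22l1 had 10.5 CPM, against 13.2 to 13.4, and its share of the pair with Rpl22 was 10.5%, against 12.2% to 12.5%. The remaining case was Rpl10 in female replicate 4, at 259 CPM, against 241 to 244 CPM in the other female libraries.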

How the results depend on the processing

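Rpl3l was the 1 member called. Without a filter on low counts 2 members were called, with DESeq2 2 and with the replicate block 0. Leaving out 1 library gave 0 to 1, and without male replicate 4 or female replicate 2 the 1 called was Rps4l. With the replicate block Rpl3l had an edgeR adjusted p of 0.055, and 427 of all genes were called. The labels do not say whether the numbers pair the samples. Over all genes, 613 were called by edgeR, 964 (5.96%) by DESeq2, 615 (3.8%) by limma-voom, 917 of 30541 without a filter, and 315 to 490 with 1 library left out.

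Of 442 refits of the 26 named members tested, 431 kept direction or stayed uncalled, 7 lost a call, all for Rpl3l, and 4 gained one, all for Rps4l. No called value turned round, and 19 uncalled values changed sign. The adjusted tests of the paralog shares say nothing about stability, since passing would need 5 of 7 pairs at the smallest exact permutation p, 0.029. With 1 library left out that smallest p is 0.057, and with the replicate block 0.12. The unfiltered fit tested 85 members.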
